A study of Homo sapiens with 3 samples.

Results

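This comparison set the KYSE150 cells that overexpressed wild-type LOXL2 against the KYSE150 cells that carried an empty vector. KYSE150 is a long-used human line from a squamous cell carcinoma of the esophagus, and the study also profiled cells overexpressing LOXL2 △e13, a splice form of the same gene. Total RNA was labelled with biotin and hybridised to PrimeView arrays, 1 for each group and 3 altogether. The labels call the cells transfected, and say neither how long after transfection RNA was taken nor whether a group was a pool or a single clone. By the labels all groups share the cell line and a transfection and differ in what was transfected.

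The quantity described is the log2 signal of the wild-type array minus that of the empty vector array. A gene was read from its probe set of highest mean signal, and it entered where the higher of its 2 signals reached the floor of 5.94, the median of all non-control values. By that rule 10881 of 18132 named genes entered. APC2 lay just inside the floor with a higher signal of 5.94 and POU3F3 just outside it with 5.94 as well. With 1 array per side no test was possible, so "higher" and "lower" describe these arrays, and no value carries an error between cultures. The spread available is that between probe sets of the same gene, a standard deviation of 0.164 over 6114 genes, and it covers probe set error alone. Signals of a gene are given in the order empty vector, wild-type LOXL2, LOXL2 △e13, and differences are wild type minus empty vector unless said otherwise.

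LOXL2 is a secreted amine oxidase that uses copper and a quinone cofactor to oxidise lysine side chains of collagen and elastin, the first step of their cross-linking. It passes through the endoplasmic reticulum, where secreted proteins fold with the help of chaperones and enter the Golgi in vesicles. When unfolded protein builds up there, the unfolded protein response raises chaperones, slows translation and removes misfolded chains. In squamous carcinoma LOXL2 is known for links to invasion, and forms of it inside the cell have been described too.

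Promoter sequence is shown first for the ER chaperone genes, because a known element of the unfolded protein response could be looked for in it. The ER stress element, read here as CCAAT and CCACG with 9 bases between them on either strand, is the site that ATF6 binds together with the factor NF-Y. It stood in the 250 bases before the start of 5 of the 19 ER chaperone genes that had a promoter in the RefSeq table, and in 16 of all 8977 genes above the floor with a promoter there, which is 0.178%. The motif was chosen after its matches were seen, from 10 motifs searched in 71 gene lists. A match is a description of letters and not a measured binding site. The stretches below are from RefSeq, build GRCh38.p14, written 5′ to 3′ along the gene's strand, with the fixed letters of each match in capitals.
HSPA5: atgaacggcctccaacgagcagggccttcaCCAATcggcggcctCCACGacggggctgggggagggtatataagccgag
HSP90B1: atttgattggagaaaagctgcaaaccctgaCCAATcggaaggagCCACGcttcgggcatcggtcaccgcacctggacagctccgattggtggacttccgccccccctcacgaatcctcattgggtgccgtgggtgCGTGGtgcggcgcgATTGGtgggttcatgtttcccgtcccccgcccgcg
CRELD2: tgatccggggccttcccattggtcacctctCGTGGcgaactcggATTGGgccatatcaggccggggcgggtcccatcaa
CALR: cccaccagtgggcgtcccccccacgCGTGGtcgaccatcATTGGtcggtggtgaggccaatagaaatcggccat
The HSPA5 stretch is chr9:125241361-125241439 on the minus strand, 96 to 18 bases before the start. The other stretches lie on the plus strand, at chr12:103930186-103930369 for HSP90B1 with 2 matches, at chr22:49918524-49918602 for CRELD2 and at chr19:12938359-12938432 for CALR. The signals of these genes were unlike each other. HSPA5, which encodes the HSP70 chaperone BiP of this compartment, was brighter with wild-type LOXL2, with signals of 12.28, 13.22 and 13.31. CRELD2, a secreted protein of the stress response, gave 8.78, 9.29 and 9.23. HSP90B1, the HSP90 chaperone of the compartment, gave 12.90, 13.18 and 13.34, and CALR, the lectin chaperone calreticulin, gave 6.40, 6.47 and 6.65 on the brighter of 2 probe sets above the floor, the other of which was at -0.10. The difference with wild-type LOXL2 was thus 0.93 for HSPA5, 0.51 for CRELD2, 0.28 for HSP90B1 and 0.07 for CALR. So the same letters stood before genes of large and of small difference, though CALR was dim and its probe sets disagreed in sign. The remaining gene with a match, CANX, is not printed. CRELD2, HSP90B1 and CALR were chosen after their values were seen.

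The arrays were checked first. Of the squamous carcinoma markers all 7 measured genes were above the floor, with the basal keratin KRT5 at 11.62, 11.52 and 11.45 and the epithelial adhesion gene CDH1 at 11.91, 11.95 and 11.95. Among markers of other cell types, 2 of 12 fibroblast genes, 4 of 13 leukocyte genes and 2 of 10 endothelial genes reached the floor. The leukocyte gene PTPRC had a signal of 2.83 with the empty vector and 3.05 with wild-type LOXL2, and the fibroblast genes DCN and COL3A1 stayed at or below 3.66. The macrophage marker CD68, a lysosomal protein that other cells also make, was the brightest of the leukocyte list at 8.97, 8.44 and 8.60. Array medians lay between 5.93 and 5.95.

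LOXL2 itself was read by 4 probe sets above the floor. Probe set 11751288_a_at had signals of 7.46, 14.05 and 7.41, a difference of 6.59 that stood far above every other gene and was seen in the wild-type array alone. Probe set 11718833_a_at gave 5.06, 10.22 and 10.77, and 11718834_at gave 5.38, 8.07 and 7.94, so that these were high in both LOXL2 arrays. Probe set 11718832_a_at went the other way, at 8.81, 8.32 and 8.73. This last probe set was thus bright in control cells and dimmer by 0.48 with wild-type LOXL2. Which stretch of the transcript each probe set reads was not given in the sources used here.

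The relatives of LOXL2 share its catalytic domain. LOXL4 was lower on its probe set above the floor, with signals of 6.95, 6.33 and 6.22, and its other probe set, below the floor, pointed the same way at 5.81, 5.45 and 5.27. LOXL1 gave 6.46, 6.65 and 6.74, and LOX, the founding member, 6.21, 6.15 and 6.21. LOX and LOXL1 thus differed by no more than 0.20, about the spread between probe sets. LOXL3 did not reach the floor, with its brighter probe set at 5.65, 5.25 and 5.40.

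**Figure D1:**
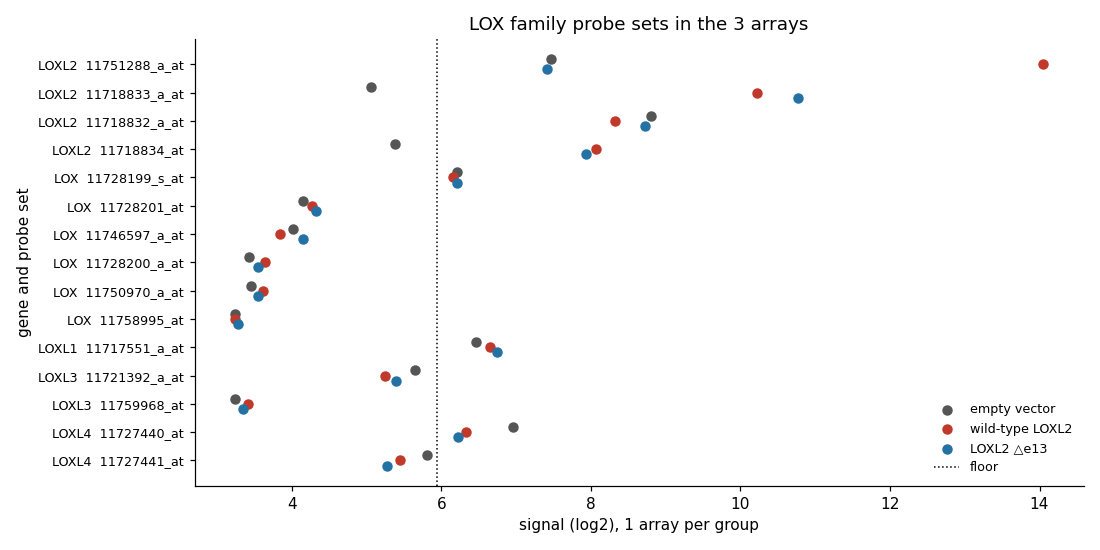
Signal (log2, horizontal axis) of each LOX family probe set in the empty vector, wild-type LOXL2 and LOXL2 △e13 arrays, 1 point per array, with the floor of 5.94 as a dotted line. The 14.05 of LOXL2 probe set 11751288_a_at in the wild-type array stands alone, and 3 of the 4 LOXL2 probe sets are higher with wild-type LOXL2 than with the empty vector.

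Over all genes above the floor 5432 of 10881 were higher, which is 49.9%, and the median difference was 0.00. Gene lists below are read against these values. A difference of 1.5-fold or more was seen upward in 220 genes (2.02%) and downward in 100 genes (0.919%). A difference of 2-fold or more was seen upward in 21 genes (0.193%) and downward in 11 genes (0.101%). Of the 21 genes, 10 had an empty vector signal below the floor, and of the 11 genes, 3 had a wild-type signal below it. Several probe sets above the floor read 6 of the 21 and 7 of the 11 genes, and they all pointed the same way for 4 and 5 of them. IL11, an interleukin of the IL6 family, EXD3 and the oncostatin M receptor OSMR were counted on the brightest probe set, while another probe set of each pointed the other way.

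Genes of the early response to growth factors and stress were prominent among the highest differences. GEM, a small GTP-binding protein, had signals of 6.25, 7.63 and 7.24 and was 2.60-fold higher. KLF10, a zinc finger factor induced early by TGF-beta, gave 8.33, 9.49 and 9.22 and was 2.23-fold higher, with both probe sets above the floor pointing upward. The orphan nuclear receptor NR4A3 gave 5.09, 6.36 and 5.85, from a control signal below the floor. IFRD1, a co-regulator of transcription induced by stress and by growth signals, was 2.12-fold higher at 8.69, 9.77 and 9.50. The list of immediate early genes as a whole did not follow them. Of its 27 members above the floor 9 were higher, with a median of -0.10, and JUNB, a subunit of the AP-1 factor, was lower at 8.37, 7.70 and 7.99. NR4A1, a close relative of NR4A3, was lower by 0.36 in log2 signal, at 7.92, 7.56 and 7.78. The AP-1 member FOSL1 gave 8.75, 8.39 and 8.66 and the small MAF factor MAFF 7.63, 7.27 and 7.63. So the list held 3 of the 21 genes at least 2-fold higher and yet had more lower than higher members.

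Other genes of this size had varied roles. ARRDC4, an alpha-arrestin that is known to respond to glucose and to limit its uptake, had signals of 7.77, 9.28 and 8.88 and was 2.85-fold higher by its brightest reading. Its 2 probe sets above the floor gave 1.51 and 1.66. Among the other alpha-arrestins ARRDC2 gave 7.17, 7.13 and 7.20. ARRDC3 gave 7.90, 7.94 and 8.32 on its brightest probe set, while its other probe set above the floor was higher by 0.82. TXNIP, which the same glucose sensor is known to raise, did not reach the floor, at 5.82, 5.57 and 5.66. ARRDC3 and TXNIP were chosen after their values were seen. ODC1, ornithine decarboxylase at the entry of the polyamine pathway, gave 9.97, 11.12 and 10.84, 2.22-fold higher and the brightest gene of this size after LOXL2. The polyamine list, ODC1 included, had 8 of 18 higher and a median of -0.00. SRM, which makes spermidine, was at 0.39 and SMS, which makes spermine, at -0.20, with 1 of its 3 probe sets at 0.04.

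DHRS2, a short-chain dehydrogenase, gave 7.22, 8.46 and 7.88. LIG4, the ligase of non-homologous end joining, gave 5.95, 7.15 and 6.69. The dim genes ABCA13, a transporter of the ABC family (4.80, 6.26 and 5.74), and GRIP1, a scaffold protein (4.75, 6.10 and 5.56), were above the floor in the wild-type array and below it in the others. A fold from a control signal under the floor rests partly on background signal. KBTBD8, an adaptor of a ubiquitin ligase, and SPMIP4, a sperm microtubule protein, were of this kind too, at 1.06 and 1.05. MIR22HG, the host transcript of a microRNA, was higher on all 4 of its probe sets above the floor, between 1.02 and 1.24.

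**Figure D2:**
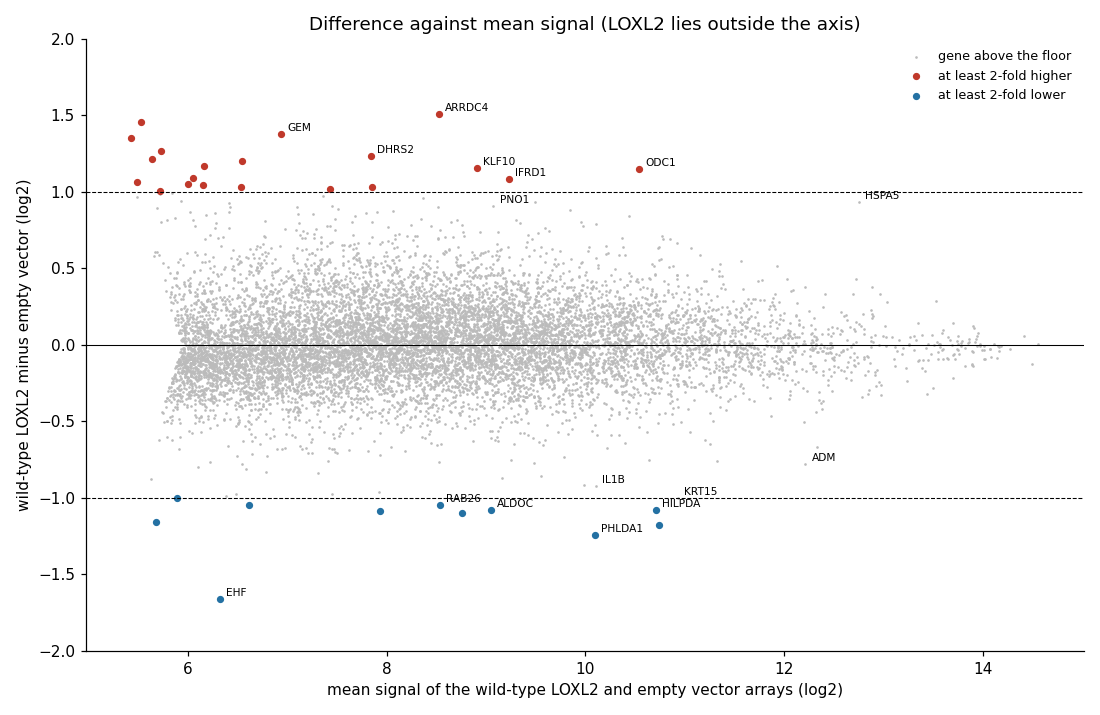
Difference between the wild-type LOXL2 and empty vector arrays (log2, vertical axis) against their mean signal (log2, horizontal axis), 1 point per gene above the floor, with 2-fold marked by dashed lines. Of the genes at least 2-fold apart, the 21 higher are in red and the 11 lower in blue, and LOXL2 at 6.59 lies outside the axis.

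Factors that build ribosomes were higher as groups. Ribosome subunits are assembled in the nucleolus by enzymes and scaffold proteins that do not stay in the finished particle. Of the 60S assembly factors 42 of 44 above the floor were higher, with a median of 0.23, and 3 of them reached 1.5-fold. RRP15 gave 8.06, 8.84 and 8.48, RRS1, which places the 5S particle, 9.89, 10.53 and 10.20, and PAK1IP1 9.08, 9.73 and 9.45. The members that were not higher were RSL24D1 at -0.17 and the helicase DDX54 at -0.11. Of the factors of the small subunit processome and 40S assembly, 36 of 39 were higher, with a median of 0.27. PNO1, a partner of the nuclease that trims the small subunit RNA, led them at 8.62, 9.53 and 9.19, and its 3 probe sets lay between 0.91 and 1.09. LTV1, a 40S export factor, gave 7.68, 8.35 and 8.05, NOL10 9.69, 10.23 and 10.02, and RRP12 9.72, 10.33 and 10.11.

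The finished ribosome's own proteins did not share this. Of the cytosolic ribosomal proteins 22 of 64 were higher, with a median of -0.02, and the direction of that share turned with the scaling, from 34.4% higher as deposited to 48.4% with centring or quantile normalization and 62.5% with loess. Many of these genes are bright, such as RPS29 at 13.84, 13.96 and 13.85 and RPL3 at 13.59, 13.28 and 13.40. The probe sets of each pointed both ways, between -0.32 and 0.12 for RPS29 and between -0.38 and 0.27 for RPL3. Mitochondrial ribosomal proteins differed from them, with 53 of 72 higher and a median of 0.13, led by MRPL1 at 9.55, 10.35 and 10.11. The core box C/D protein NOP58 gave 10.75, 11.38 and 11.15, while its list of small nucleolar ribonucleoproteins had 11 of 17 higher and a median of 0.04. RNA polymerases I and III had 20 of 34 higher and a median of 0.05. The polymerase III subunit POLR3C was higher on all 3 of its probe sets, between 0.59 and 0.74.

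Translation and protein turnover genes were higher in part. Initiation factors had 24 of 37 higher and a median of 0.06, and EIF5, which triggers GTP hydrolysis at the start codon, gave 10.42, 11.06 and 10.72, with its 6 probe sets between 0.61 and 0.81. EIF3J, a loosely bound eIF3 subunit, gave 9.43, 10.05 and 9.74. Cytosolic aminoacyl-tRNA synthetases, which charge tRNAs, had 13 of 20 higher and a median of 0.04. Proteasome subunits had 26 of 33 higher with a median of 0.11 and none at 1.5-fold. PSMC4, an ATPase of the regulatory particle, was the highest of them at 9.68, 10.19 and 10.03. E-box letters, CACGTG, the known site of MYC and its partner MAX, stood before 5 of 38 genes of the 60S list and 5 of 34 of the 40S list, against 11.5% of all promoters. MYC gave 8.86, 8.65 and 8.79 on its probe set, and MYCL, a relative of MYC, 6.72, 7.52 and 7.15. The difference of MAX was 0.35. Their list, the MYC and MAX network, had 4 of 12 higher and a median of -0.07.

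Genes of protein folding in the endoplasmic reticulum were higher together with a few of its disposal genes. Of the ER chaperones and their co-chaperones 17 of 22 were higher, with a median of 0.30, and 5 reached 1.5-fold. For HSPA5 the 6 probe sets lay between 0.93 and 1.64, with a median of 1.15. DNAJB11, a J-protein partner of HSPA5, gave 9.71, 10.50 and 10.46, DNAJC3, another such partner and an inhibitor of the kinase PERK, 7.30, 8.02 and 7.90, and DNAJB9 8.31, 8.94 and 8.75. HYOU1, a large chaperone that also serves HSPA5 as an exchange factor, gave 8.81, 9.40 and 9.51 on the brightest of 6 probe sets, which lay between -0.04 and 0.72 with a median of 0.32. The prolyl isomerase FKBP10, a collagen chaperone, was the lowest of the list at 9.34, 8.92 and 9.22.

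The neighbouring steps of secretion were less uniform. Translocon and signal peptide genes had 21 of 30 higher and a median of 0.11, with the signal peptidase subunit SEC11C at 8.40, 9.14 and 9.10 and the receptor subunit SRPRB at 9.12, 9.81 and 9.55. ER-associated degradation had 16 of 25 higher and a median of 0.07. HERPUD1, a stress-induced part of the degradation complex, gave 9.40, 10.28 and 10.44 on a list where MARCHF6, a ubiquitin ligase of the same membrane, gave 9.52, 9.13 and 9.28. The median over the 3 probe sets of MARCHF6 was smaller, at -0.07. Disulfide isomerases and oxidases had 11 of 20 higher and a median of 0.06, and genes of the COPII and COPI vesicles had 12 of 29 higher and a median of -0.02. The vesicle SNARE gene GOSR2 gave 7.41, 8.01 and 7.95, with 5 probe sets between 0.13 and 0.60, while the coat GTPase ARF1 gave 11.56, 11.16 and 11.26.

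Stress genes differed from list to list. The list of unfolded protein response and integrated stress regulators had 17 of 24 higher and a median of 0.16. DDIT3, the factor CHOP, gave 7.33, 8.36 and 8.70 and was the member past 2-fold. ATF3 gave 10.21, 10.68 and 10.71, and ATF6, the sensor that binds the element printed above, differed by 0.39. The ATF4 amino acid response list, whose genes are known targets of the integrated stress response, had 8 of 23 higher and a median of -0.16. DDIT4, an inhibitor of mTORC1, was its lowest member with a difference of -0.66. GDF15, a stress cytokine, gave 8.69, 8.08 and 8.45 on the brightest of 4 probe sets, which lay between -0.98 and 0.23, and the serine synthesis enzyme PHGDH 8.85, 8.33 and 8.43. ASNS, asparagine synthetase, gave 10.83, 10.40 and 10.54. DDIT3 and these 4 genes thus pointed in opposite directions by their brightest probe sets in this pair of arrays. Whether branches of the stress response differed was not tested.

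Cytosolic chaperones were higher as a group on this longer list. Of the heat shock chaperones 21 of 28 were higher with a median of 0.25. HSPA6, a strictly inducible HSP70, gave 5.51, 6.60 and 7.34, so that its highest signal was in the △e13 array. It was read by 1 probe set, on which the empty vector signal was below the floor. HSPA1B, the inducible HSP70 of the cytosol, which shares nearly all its sequence with HSPA1A, gave 9.16, 9.89 and 9.93. The small heat shock protein HSPB8 gave 8.17, 8.87 and 8.55, the HSP90 co-chaperone CHORDC1 10.44, 11.13 and 10.78, and the exchange factor HSPH1 10.59, 11.10 and 10.94.

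**Figure D3:**
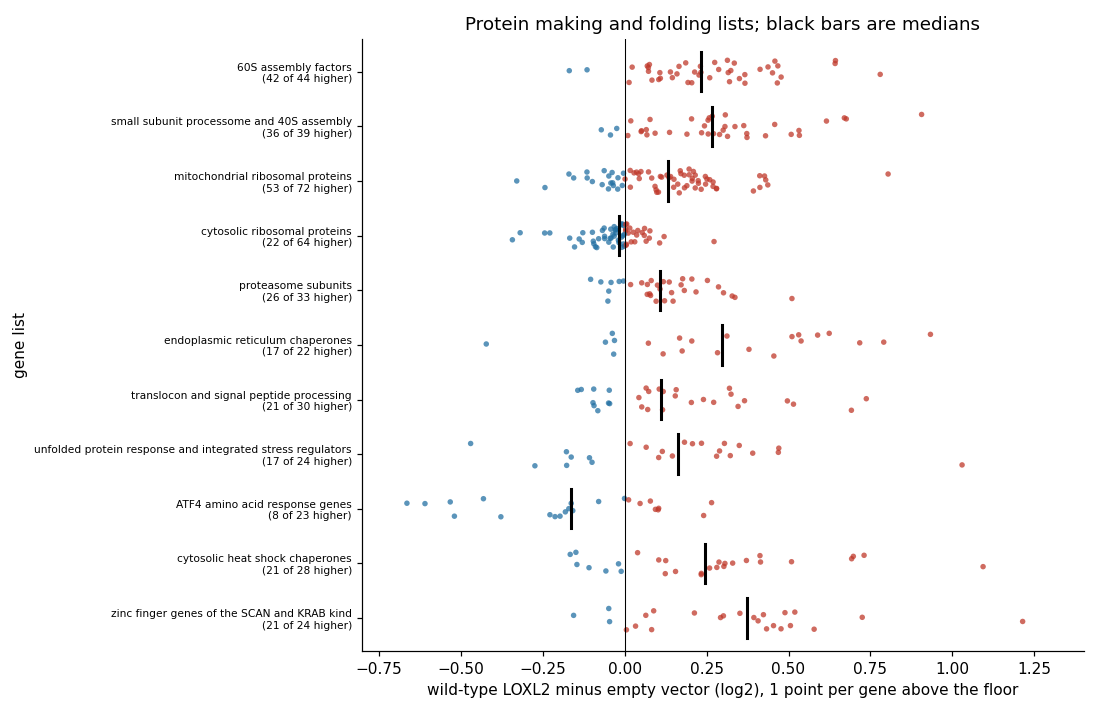
Differences (log2, horizontal axis) of the members above the floor of 11 lists on protein making, folding, stress and zinc finger genes, 1 point per gene, red where higher and blue where lower with wild-type LOXL2, with the list's median as a black bar. Nearly all points of the 2 subunit assembly lists lie to the right of 0, while cytosolic ribosomal proteins lie around it and the ATF4 list to its left.

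Zinc finger genes were higher as a class. Proteins with a SCAN or KRAB domain are DNA-binding factors, many of which silence transposable elements. Of the list of such genes 21 of 24 above the floor were higher, with a median of 0.37. ZSCAN12 gave 5.03, 6.24 and 5.74 and ZSCAN29 6.90, 7.62 and 7.46. Among all genes named ZNF and a number, a grouping made after values were seen, 176 of 258 above the floor were higher, with a median of 0.15. They held 22 genes past 1.5-fold upward and 2 past it downward. ZNF425 gave 5.57, 6.74 and 6.26 and ZNF181 5.34, 6.33 and 5.65. ZSCAN12, ZNF425 and ZNF181 had an empty vector signal below the floor and so entered through the wild-type array alone. All probe sets above the floor lay on the same side for 223 of the 258, where genes with a single probe set agree by definition. Counted in the same way, mitochondrial ribosomal proteins had 60 of 72 and DNA replication and S phase genes 46 of 56. ZNF189 gave 7.72, 8.39 and 8.11 with 3 probe sets between 0.67 and 1.07, ZNF292 8.16, 8.91 and 8.53 with 4 between 0.75 and 0.95, and ZNF37A 7.09, 7.76 and 7.50 with 4 between 0.67 and 0.89. The lowest was ZNF789 at 7.79, 7.03 and 7.30, although its 2 probe sets gave -0.76 and 0.67. Zinc finger genes of this class are alike in sequence, and how far their probe sets cross-react was not tested.

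Replication-dependent histone genes are known for messages without a poly(A) tail. Of 55 measured members 16 reached the floor and 11 of these were higher, with a median of 0.32. H2BC5 gave 8.89, 9.71 and 9.44, H2AC11 7.73, 8.44 and 8.10, and H2AC6 8.28, 8.90 and 8.98. H2BC15 was lower, at 6.67, 6.28 and 6.78. The median of all 55 without a floor was -0.03, so the direction held for the brighter members alone. Histone genes of a family are near-identical in parts, and the array may not separate them.

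Cell cycle genes differed by phase. Of the mitosis and G2/M genes 12 of 66 were higher, with a median of -0.17 and none at 1.5-fold lower. CDC25B, a phosphatase that activates mitotic CDK1, gave 9.54, 9.10 and 9.13 with a median of -0.32 over 5 probe sets, CCNB2, a mitotic cyclin, 10.74, 10.29 and 10.47, and AURKB, the kinase of the chromosomal passenger complex, 9.62, 9.19 and 9.40. Its member CDC25A, the relative that acts at the entry into S phase, was higher at 7.60, 8.26 and 7.89. Of the DNA replication and S phase genes 27 of 56 were higher, with a median of -0.00. CDC6, a loader of the replicative helicase, gave 9.24, 9.87 and 9.56, though its other probe set was at 0.04. MCM5, a helicase subunit, gave 6.25, 5.89 and 6.08. CCNE2, a G1/S cyclin, was higher by 0.63 in log2 signal. In bulk RNA a smaller share of cells in mitosis and less RNA per such cell cannot be told apart. The inhibitor CDKN2B was at 6.92, 7.51 and 7.01 and CDKN1B at 9.69, 9.30 and 9.48.

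The lowest differences included factors of epithelial identity and of receptor signalling. EHF, an epithelial ETS factor, had signals of 7.15, 5.49 and 6.37 and was 3.16-fold lower, with its wild-type signal below the floor and 1 probe set above it. The rest of the ETS list had smaller differences, such as ETV5 at 8.61, 8.15 and 8.53 and ELF3 at 9.25, 9.02 and 9.24, of whose 3 probe sets 1 was at 0.50. KRT15, a keratin of basal cells, gave 11.43, 10.43 and 10.60, and KRT14, another basal keratin, 7.76, 7.08 and 7.30. CLIC3, a chloride channel relative, gave 7.94, 6.96 and 7.02, and RAB26, a GTPase of secretory granules, 9.06, 8.01 and 8.25. GNE, which starts sialic acid synthesis, gave 6.25, 5.09 and 5.49, and the bile salt lipase CEL 6.39, 5.39 and 5.73, each with a wild-type signal below the floor. TMT1A, a methyltransferase, gave 6.97, 6.00 and 6.00, and LRG1, a secreted leucine-rich glycoprotein, 8.40, 7.44 and 7.68. RDM1, a protein that carries a motif of the recombination protein RAD52, was lower on all 4 of its probe sets above the floor, between -1.05 and -0.33.

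Squamous differentiation genes were mostly lower. Of the cornified envelope list 5 of 22 above the floor were higher, with a median of -0.18. The protease inhibitor SERPINB1 gave 10.44, 9.53 and 9.78, and CSTA, a cystatin of the envelope, 11.02, 10.27 and 10.60. EMP1, a membrane protein of differentiating epithelium, gave 10.72, 10.08 and 10.36 and was lower on 3 of 3 probe sets. KRT10, the keratin of cells above the basal layer, was higher, at 9.77, 10.22 and 10.09. Basal squamous markers had 5 of 17 higher and a median of -0.10. Simple epithelial and glandular genes had 2 of 12 higher and a median of -0.27, with a difference of -0.71 for the water channel AQP3. Epithelial junction genes were even, at 18 of 36 and a median of -0.03, and mesenchymal transition genes had 7 of 17 higher and a median of -0.04. SNAI2, a transcription factor of that transition, gave 9.93, 10.53 and 10.28, whereas the mesenchymal filament VIM gave 7.81, 7.59 and 7.99, with its other probe set at 0.05.

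EGFR and several feedback genes of growth factor signalling were lower. EGFR, the epidermal growth factor receptor, gave 10.55, 9.88 and 10.42 on the brightest of 6 probe sets, all of them lower, between -0.67 and -0.20 with a median of -0.30. Its list of receptors and ligands had 4 of 11 higher and a median of -0.13, with the ligand HBEGF at 0.28. NRG1, a ligand of related receptors, gave 10.98, 10.47 and 10.70. PHLDA1, induced by ERK signalling and by stress, was 2.36-fold lower at 10.71, 9.47 and 9.76, and its 4 probe sets lay between -1.24 and -0.55. DUSP6, the phosphatase that shuts off ERK, gave 8.29, 7.58 and 7.89 and was lower on 4 of 4 probe sets. SPRY1, a feedback inhibitor of receptor kinases, gave 8.03, 7.56 and 7.70. In all 6 of 22 MAPK feedback genes were higher, with a median of -0.10. Of the TGF-beta list 12 of 29 were higher with a median of -0.03. Its target ID1, an inhibitor of differentiation factors, gave 9.90, 9.24 and 9.36, and the feedback inhibitor SMAD7 6.33, 5.75 and 5.97, while SKIL, another feedback repressor, was higher at 6.95, 7.55 and 7.34.

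Hypoxia genes were lower with wild-type LOXL2. Hypoxia-inducible factors bind sites with the core ACGTG, which stood on either strand in the 250 bases before 16 of the 24 listed genes with a promoter, against 29.1% of all promoters. The share was the same before the genes of the COPII and COPI vesicles, at 18 of 27, and near it before the clock genes, at 9 of 14. These letters overlap the E-box CACGTG. They were also chosen after their matches were seen. The 3 stretches below show genes with a small and with a large difference, from RefSeq, build GRCh38.p14, with the core or its reverse complement in capitals.
ANKRD37: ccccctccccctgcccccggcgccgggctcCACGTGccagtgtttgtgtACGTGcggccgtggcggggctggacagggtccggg
BNIP3: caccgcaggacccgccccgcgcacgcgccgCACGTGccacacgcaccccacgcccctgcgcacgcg
P4HA1: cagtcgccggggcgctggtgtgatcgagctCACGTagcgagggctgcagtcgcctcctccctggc
They lie at chr4:185396649-185396732 on the plus strand, and at chr10:131982022-131982087 and chr10:73096918-73096982 on the minus strand. ANKRD37, an ankyrin repeat gene, gave 9.98, 9.12 and 10.36. BNIP3, a mitophagy receptor that was chosen after its value was seen, gave 9.38, 9.10 and 9.72. P4HA1, a subunit of collagen prolyl hydroxylase, gave 9.38, 9.17 and 9.55. In each of these 3 genes the wild-type array was the lowest and the △e13 array the highest. All 3 are also among the genes of opposite sign against the empty vector that are flagged below, and that sign alone gives this order. Other listed genes with the core lacked it. BHLHE40 gave 8.76, 8.12 and 8.67, and DDIT4 differed by -0.66 with wild-type LOXL2 and by -0.12 with △e13. Whether the core goes with the order was not tested.

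Of the 30 hypoxia genes above the floor 7 were higher, the median was -0.19, and 5 were at least 1.5-fold lower. HILPDA, a lipid droplet protein induced by hypoxia, gave 11.25, 10.17 and 11.37 and was 2.11-fold lower on both of its probe sets. ADM, a vasodilator peptide, gave 12.60, 11.83 and 12.46, with 3 probe sets between -1.01 and -0.68, and BHLHE40, a repressor that also sits in the clock, 8.76, 8.12 and 8.67. VEGFA, the angiogenic factor and another classical target, gave 9.74, 9.84 and 9.80 on its brightest probe set, while 7 of its 9 probe sets were lower and their median was -0.16. HIF1A gave 11.59, 11.43 and 11.53. VEGFA and HIF1A were chosen after their values were seen.

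Glycolysis genes had 9 of 23 higher and a median of -0.14. ALDOC, an aldolase, was 2.11-fold lower at 9.58, 8.51 and 8.98, and its 5 probe sets lay between -1.12 and -0.84. The other members were closer to the control, such as PGK1 at 13.01, 12.69 and 12.93, ENO2 at 8.57, 8.24 and 8.65 and the glucose transporter SLC2A1 at 10.86, 10.55 and 10.79. Respiratory chain subunits had 33 of 70 higher and a median of -0.01. The clock list was even, at 8 of 15 higher, yet its members went apart, with the repressor CRY1 at 9.07, 9.75 and 9.50 and PER1, its partner, at 7.81, 7.12 and 7.74.

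Sterol genes were lower. Of the cholesterol synthesis enzymes 3 of 17 were higher, with a median of -0.14. SQLE, which makes squalene epoxide, gave 10.15, 9.42 and 9.70 with 4 probe sets between -0.73 and -0.60, and MSMO1, a sterol demethylating enzyme, 11.58, 10.93 and 11.11 with 3 between -1.11 and -0.64. FDPS, which makes farnesyl diphosphate, gave 11.21, 10.71 and 10.79. INSIG1, which holds the sterol sensor in the endoplasmic reticulum, gave 11.47, 11.03 and 11.27, with 3 probe sets between -0.89 and -0.45. LRP1, a lipoprotein receptor, gave 7.55, 6.94 and 7.29, and its other probe set was at -0.20. Fatty acid synthesis and desaturation genes had 6 of 20 higher and a median of -0.10, with the acetyl-CoA synthetase ACSS2 at 9.13, 8.62 and 8.58 and the desaturase SCD at 12.10, 11.63 and 11.71.

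Immune genes of the carcinoma cells were lower at several levels. Of the interleukin 1 and inflammasome list 3 of 12 above the floor were higher, with a median of -0.22, and 4 were at least 1.5-fold lower. These were the cytokines IL1B, at 10.57, 9.65 and 10.14, and IL1A, at 11.70, 10.94 and 11.39, and the inflammatory caspases CASP1, at 6.06, 5.19 and 5.27, and CASP4, at 9.63, 8.87 and 9.06. CASP1 had 1 of 9 probe sets above the floor, and its wild-type signal was below it. Of the MHC class I and antigen processing genes 5 of 23 were higher, with a median of -0.21 and none at 1.5-fold. ERAP2, which trims peptides, gave 7.95, 7.48 and 7.64, and TAPBP, which loads them, 9.71, 9.36 and 9.49, with 4 probe sets between -0.44 and -0.01. NLRC5, an activator of the class I genes, was higher at 7.96, 8.39 and 8.33. Interferon-stimulated genes had 15 of 37 higher and a median of -0.10, with IFITM1 at 7.82, 7.24 and 7.56. The list of NF-kB pathway, cytokine and chemokine genes had 11 of 28 higher and a median of -0.10. Its members lay between -0.84 and 1.03. The acute phase gene SAA1 was its lowest, at 7.72, 6.88 and 7.68, and IL11 its highest, on the brightest probe set.

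Matrix genes, the surroundings in which LOXL2 is known to act, were lower in several classes but not in the collagens. Collagens had 7 of 13 above the floor higher and a median of 0.00, with COL5A2 at 5.69, 6.29 and 6.15 and COL4A6 at 6.15, 6.71 and 6.62. COL5A2 had 1 of 6 probe sets above the floor, and its empty vector signal was below it. The 3 probe sets of COL4A6 lay between 0.04 and 0.57 with a median of 0.12. Collagen processing enzymes had 6 of 15 higher and a median of -0.08. Matrix glycoproteins and elastic fibre genes had 4 of 17 higher and a median of -0.28. TNC, tenascin C, went against that list at 7.85, 8.63 and 8.23, with 3 probe sets between 0.44 and 0.78, while EFEMP2, an elastic fibre protein, gave 7.24, 6.77 and 6.96 and THBS3, a thrombospondin, 6.66, 6.17 and 6.36. Laminins and basement membrane genes had 1 of 8 higher and a median of -0.15, and integrin subunits had 2 of 13 higher and a median of -0.18. ITGB5, the partner of ITGAV in a vitronectin receptor, was the lowest integrin at 9.67, 9.10 and 9.22, while ITGAV itself gave 9.15, 9.35 and 9.28. Genes of matrix breakdown were also lower, with 4 of 19 metalloproteinases and inhibitors higher and a median of -0.12, and 1 of 8 plasminogen activation genes higher and a median of -0.27. MMP14, the membrane-bound collagenase, gave 10.01, 9.44 and 9.61, and the urokinase gene PLAU 11.54, 11.04 and 11.57. MMP28 gave 7.29, 6.61 and 6.65, with its other probe set at 0.05. Focal adhesion genes, by contrast, had 11 of 24 higher and a median of -0.01.

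**Figure D4:**
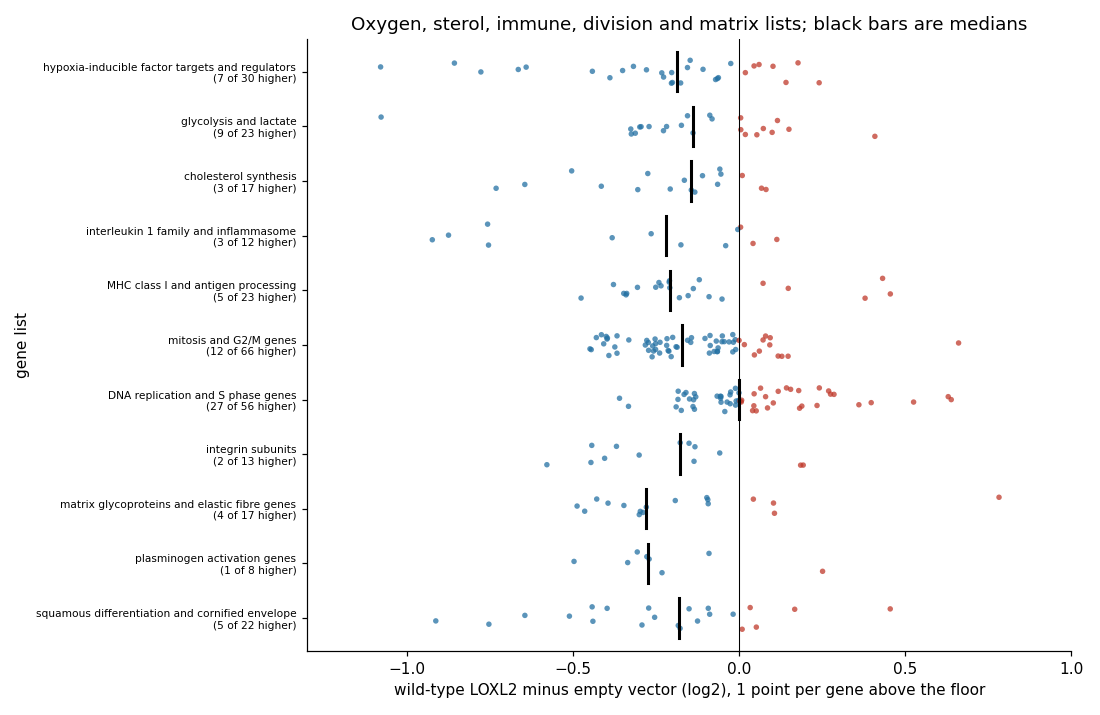
Differences (log2, horizontal axis) of the members above the floor of 11 lists on oxygen, sterol, immune, cell cycle, matrix and differentiation genes, 1 point per gene, red where higher and blue where lower with wild-type LOXL2, with the list's median as a black bar. The medians lie between -0.28 and -0.14 except that of the DNA replication and S phase genes, at 0.00.

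Agreement between probe sets was taken as a further description. Of 3227 genes with at least 3 probe sets above the floor 1806 had them all on the same side, which is 56.0%. All probe sets were at least 1.5-fold higher for 13 genes and at least 1.5-fold lower for 7. The higher genes were MIR22HG, HSPA5, ST7L, PNO1, ZNF189, ZNF37A, ZNF292, CCDC112, HERPUD1, ZNF140, EIF5, POLR3C and RCAN1, the last 2 with the smallest medians at 0.64. ST7L, a relative of the candidate tumour suppressor ST7, gave 5.88, 6.68 and 6.45 on its brightest probe set. Of its 9 probe sets 6 were above the floor, between 0.80 and 1.49. Its empty vector signal on the brightest was below the floor, and a probe set that enters in this way can only point upward. The lower genes were ALDOC, MSMO1, ADM, SQLE, ID1, DUSP6 and EMP1. PDCD6, a calcium-binding protein, showed the opposite case, with its brightest probe set at 11.56, 11.45 and 11.45 and its other probe sets above the floor at -0.90 and -0.98. ZNF140 and RCAN1 were chosen after their values were seen.

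Some technical values moved in the same direction as the lower lists. Background probe sets, which match no human gene and are numbered by GC content, were lower in the wild-type array in 12 of 12 sets numbered 14 to 25, with a median of -0.20 and a range from -0.29 to -0.10. In the 11 sets numbered 3 to 13 the median was 0.01. The set of GC number 25 had signals of 10.84, 10.56 and 10.75, so it lay within the range of well expressed genes. The split at 14 was made after the values were seen. The array's control sets named BioB, BioC and BioDn lay between -0.25 and -0.06, and in △e13 between -0.31 and -0.14. Further bacterial sets, named r2-Ec with bioB, bioC or bioD, lay between -0.20 and 0.02, and in △e13 between -0.25 and -0.11. Other added controls went both ways, with AFFX-r2-Bs-lys-3_at at 0.12 and AFFX-r2-Bs-dap-5_at at -0.18. The actin control set of the 5′ end was at -0.21 and that of the 3′ end at -0.01, while those of GAPDH were at -0.11 and -0.10. The part of these controls in the differences was not tested. Genes in the dimmest of 5 equal bins of mean signal were higher in 37.9% of cases, with a median of -0.07, and those in the shortest of 5 bins of gene length in 43.0%, with a median of -0.03. In bins 3 and 4 of mean signal 56.1% and 56.4% were higher, and in the longer bins 4 and 5 of gene length 55.4% and 53.8%. By promoter GC content the share stayed between 49.0% and 52.7% over such bins. That content was taken from the bases before the gene start and not from the probes of the array. Whether the share varied with the GC content of the probes was not tested. The matrix glycoprotein, plasminogen, glandular, interleukin 1, MHC class I, hypoxia, cornified envelope and integrin lists had medians of about the size of the GC-rich background sets, between -0.28 and -0.18. The smaller medians of the mitosis, ATF4, laminin, cholesterol, glycolysis, EGF receptor and metalloproteinase lists, between -0.17 and -0.12, also lay within the range of those sets. The part of that background in these results was not tested.

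**Figure D5:**
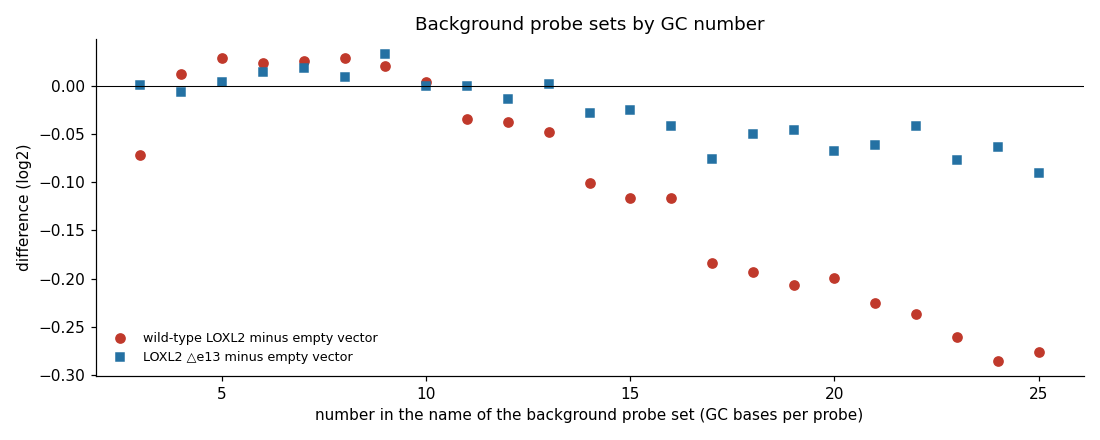
Difference from the empty vector (log2, vertical axis) of background probe sets by the GC number in their name (horizontal axis), as circles for wild-type LOXL2 and squares for LOXL2 △e13. The circles lie between -0.07 and 0.03 at numbers 3 to 13 and at -0.28 at number 25, where the square lies at -0.09.

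The △e13 array, which shares its control with this comparison, is set beside it here by values alone. The median of △e13 minus empty vector was 0.05 for the hypoxia list, where wild type gave -0.19, and 0.01 for glycolysis, where wild type gave -0.14. For ER chaperones it was 0.32 against 0.30. For the 60S assembly factors it was 0.14 against 0.23, for the small subunit processome 0.11 against 0.27, and for the SCAN and KRAB zinc finger genes 0.17 against 0.37. Cholesterol synthesis gave -0.20 against -0.14, and plasminogen activation genes -0.02 against -0.27. As the empty vector array enters both sides, a deviation of that array would appear in both. A deviation of the wild-type array would appear in its values alone. The background sets numbered 14 to 25 had a median of -0.06 with △e13 against -0.20 with wild type. The part of that background in the contrast between the forms was not tested.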

How the data were processed

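Values of 3 arrays, 1 per group, were deposited as log2 signals per probe set, for which the authors used RMA (per the submitters' processing notes). RMA removes background, brings the arrays to like distributions and combines the probes of a set, so a shift of most genes one way would not show. Its version was not given in the sources used here. The log2 scale follows from the range, 2.07 to 14.56. Of 49395 probe sets 102 were controls. The platform annotation, updated through a RefSeq table (GRCh38.p14), named 44988 by 1 symbol, while 1832 had several and 2473 were not listed, and these stayed unnamed.

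The floor, 5.94, was set on the higher of a gene's 2 signals, so a list count covers the members above it, which was every listed gene in the ER chaperone, MYC network and DNA replication lists alone. Arrays have no depth, and their number limits the precision. Of 77 gene lists 73 had at least 5 members above the floor and were described by their members higher and their median, without a test. The members and lists were chosen with earlier results of these data known. Named were the 15 highest and 15 lowest genes whose probe sets above the floor pointed the same way, the LOX family, the 10 highest and 10 lowest by median among genes with 3 or more such probe sets, and per list up to 5 members in the direction of its median and 2 against it. Beyond this rule CDH1, PTPRC, DCN, COL3A1, OSMR and EXD3 were picked with their values known, as were the genes so marked in the text.

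Alternatives were the median over probe sets, dropping the floor, raising it to the 75th percentile (7.86) or asking it of both signals, centring, quantile normalization, loess (span 0.3), members with probe sets all pointing the same way, and thresholds of 1.5-fold and 3-fold. Promoter motifs were searched in 250 bases before gene starts. The calculations were tested on simulated data. Python 3.11.15 was used with numpy 2.4.6, pandas 2.3.3, scipy 1.17.1, statsmodels 0.14.6 and matplotlib 3.10.9.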

Additional observations from a re-analysis of the deposited data

Results flagged for a closer look

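Probe sets outside every gene list were looked at too. Of 4305 probe sets without a single gene symbol, 2013 were above the floor. At least 2-fold higher with wild-type LOXL2 were 5 of the 2013, and 0 were at least 2-fold lower. Over all named genes above the floor these shares were 0.193% and 0.101%. The empty vector signals of the 5 were 4.33, 4.11, 4.98, 5.15 and 6.63, all but the last below the floor. The farthest apart had signals of 4.33 with the empty vector, 7.22 with wild-type LOXL2 and 8.16 with LOXL2 △e13. What these probe sets read was not tested.

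Genes of opposite sign against the shared empty vector array were looked for among the genes named in the text or by the naming rule, with both differences at least as large as the spread between probe sets. ANKRD37, an ankyrin repeat gene of the hypoxia list, differed by -0.86 with wild-type LOXL2 and by 0.38 with △e13. P4HA1 differed by -0.20 and 0.17, and VIM, the mesenchymal filament vimentin, by -0.22 and 0.18, though its other probe set was at 0.05 and 0.14. BNIP3, picked with its values known, differed by -0.28 and 0.35. ZFP37, a zinc finger gene, differed by 0.51 and -0.19 on a probe set whose empty vector signal, 5.54, did not reach the floor. With 1 array per group these differences between the LOXL2 forms were not tested.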

How the results depend on the processing

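No paired analysis was possible because each group has 1 array. Centring, quantile normalization and loess moved the median of all genes by at most 0.02, and the cytosolic ribosomal proteins were the list they moved beyond its interval or spread. The 21 genes at least 2-fold higher became 8 with the floor at the 75th percentile, 11 with both signals at the floor, 220 at 1.5-fold and 1, LOXL2, at 3-fold. The 11 lower became 6 by the median over probe sets, 7 at the 75th percentile, 100 at 1.5-fold and 1, EHF, at 3-fold. The share of cytosolic ribosomal proteins that were higher went from 34.4% to 48.4% with centring, 48.4% with quantile normalization, 62.5% with loess and 22.5% among members whose probe sets all pointed the same way. By that last choice hypoxia genes were higher in 9.09%, and medians were -0.30 for cholesterol regulation and 0.21 for small nucleolar ribonucleoproteins. Without a floor the histone median turned to -0.026, the SCAN and KRAB median was 0.206 and 60.976% of numbered ZNF genes were higher. At the 75th percentile the histone median was 0.553 and the matrix glycoprotein median -0.096. By the probe set median 14 named genes changed sign. In 5 of them the difference had been larger than the probe set spread, and it became 0.052 for EIF4A2, 0.038 for POLR3A, 0.025 for RPA2, -0.031 for SLC36A1 and -0.090 for TMX3. The other 9 were CALR, DLAT, PSMA2 and RPS29, PER2 and FOXM1 at -0.228 each, KLF3 at -0.655, DNAJB6 at 0.620 and VEGFA at -0.161. Beside the 5, 57 named genes moved by more than the spread. The causes were not tested. The remaining differences of the named genes moved by less than the spread, and the remaining medians and shares by less than the spread or their interval. No array can be left out, so how far any value holds in another culture was not tested, and dim signals limit folds near the floor.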

Other observations

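Genes of RNA processing and protein handling outside the lists described so far gave further values. Of the SR and hnRNP splicing factors 26 of 43 above the floor were higher with wild-type LOXL2, with a median of 0.07. SRSF8 had signals of 5.62, 6.67 and 5.88 in the empty vector, wild-type and △e13 arrays, and HNRNPM, a factor of alternative splicing, 11.02, 11.52 and 11.27. Only in the wild-type array was SRSF8 above the floor. The kinase CLK2, which phosphorylates SR proteins, was lower, at 9.46, 9.05 and 9.12. Among autophagy genes, of which 18 of 47 were higher with their lysosomal partners, MAP1LC3B, a protein of the autophagosome membrane, gave 9.71, 10.35 and 10.26 and the cargo receptor SQSTM1 11.67, 12.19 and 12.04, while the lysosomal protease CTSD gave 8.23, 7.80 and 7.88. Actin regulators had 18 of 49 higher and a median of -0.09, with the bundling protein FSCN1 at 10.65, 10.33 and 10.44.

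Among known p53 targets 10 of 22 were higher and the members went apart. TIGAR, a phosphatase that lowers glycolysis, gave 7.46, 8.33 and 8.08 and the nuclease AEN 7.31, 7.96 and 7.63, while the fucosidase FUCA1 gave 7.24, 6.55 and 6.87. NRF2 targets had 10 of 24 higher and a median of -0.10, with the pentose phosphate enzyme TKT at 12.45, 11.95 and 11.95 and the aldo-keto reductase AKR1B10 at 5.80, 6.39 and 6.23. The empty vector signal of AKR1B10 was below the floor.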
